A study of Mus musculus with 12 samples.

Results

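The genes described are the nuclear genes of the mitochondrial respiratory chain, taken by symbol: Nduf genes for complex I, Sdha to Sdhd for complex II, Uqcr genes for complex III, Cox4 to Cox8 genes for complex IV and Atp5 genes for complex V. Of 26219 mouse genes with a curated RefSeq transcript, 100 met these patterns: 50 in complex I, 4 in complex II, 8 in complex III, 19 in complex IV and 19 in complex V. Binding was read from peaks, the stretches of the genome that the submitters called as enriched after immunoprecipitation. A gene was counted as occupied by a protein when a start site of the gene, the first base of a transcript, lay no more than 1000 bp from a peak of that protein. The set was chosen with earlier results of these data known. Its genes were taken by symbol and not by binding, except Dmac2 and Dmac2l. These entered complex V by older symbols in the deposited tables, which name only genes listed with a peak or a bound window.

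Chromatin immunoprecipitation with sequencing located Jmjd2a (Kdm4a) and Jmjd2c (Kdm4c), enzymes that remove methyl groups from histone H3, in leukaemic granulocyte-macrophage progenitors (L-GMP) of C57BL/6 mice transformed by the fusion oncogene MLL-AF9. Cell lines from leukaemic mice were grown in RPMI medium with 20% fetal bovine serum and 10 ng/ml IL-3. Every group, controls included, was Jmjd2a/Jmjd2b/Jmjd2c f/f (floxed) with Rosa26::CreERT2, a Cre recombinase switched on by 4-hydroxytamoxifen (OHT), and each antibody was used on untreated cells and on cells given 500 nM OHT for 96 h. Of the 12 libraries in 8 groups, Jmjd2a and Jmjd2c had 1 library per condition, and the histone marks H3K9me3 and H3K36me3 had 2. The deposited tables examined here hold 8977 Jmjd2a peaks, 10521 Jmjd2c peaks and 6940 windows around start sites bound by both. They carry positions and no value per library, so the depth is unknown, no comparison of OHT with control could be made and every count below lacks a replicate check. The sources used here do not say which libraries entered each list. Peak width is the only size available, and it is not a measure of signal.

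Complex I oxidises NADH and complex II oxidises succinate. Both hand electrons through ubiquinone to complex III, which reduces cytochrome c, and complex IV passes the electrons to oxygen. Complexes I, III and IV pump protons across the inner membrane, and complex V, the ATP synthase, lets them back to make ATP. A few subunits of complexes I, III, IV and V are encoded in mitochondrial DNA, and the others, with all of complex II, come from the nuclear genes described here.

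Jmjd2c lay at the start sites of 86 of the 100 genes (86%, exact Clopper-Pearson 95% binomial interval 77.6 to 92.1%), against 37.9% of all RefSeq genes measured the same way. Jmjd2a lay at 46 (46%, 36 to 56.3%), against 27.4% of all genes. Both proteins lay at the same 46 genes, against 24.5% of all genes. Every member with Jmjd2a thus also had Jmjd2c, as did 89.5% of all genes with Jmjd2a. None of the 100 had Jmjd2a alone, a state rare over all genes too (2.88%). Jmjd2c alone was found at 40 members (40%), against 13.4% of all genes, and neither protein at 14 (14%), against 59.3%. Among protein-coding genes without predicted and receptor genes, the shares were 49.9% for Jmjd2c, 36.1% for Jmjd2a and 32.3% for both. The member interval for Jmjd2a, 36 to 56.3%, reached that 36.1%, so a higher share than in this set was not shown for Jmjd2a. The intervals treat genes as independent draws and cover counting error only. The counts of members include Dmac2 and Dmac2l, which had both proteins and entered only because the deposited tables list them.

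Occupancy differed with the role of the gene. Of 78 structural subunits, leaving out assembly factors, restricted isoforms, copies without introns or pseudogenes and the pair of genes placed in complex V by an older symbol, 76 had Jmjd2c (97.4%, 91 to 99.7%) and 38 had Jmjd2a (48.7%, 37.2 to 60.3%). By complex, Jmjd2c lay at 36 of 38 structural subunits of complex I, at 4 of 4 of complex II, 8 of 8 of complex III, 11 of 11 of complex IV and 17 of 17 of complex V. Jmjd2a lay at 19 of 38, 1 of 4, 3 of 8, 5 of 11 and 10 of 17 of the same genes. Among protein-coding genes without predicted and receptor genes, 49.9% had Jmjd2c and 36.1% had Jmjd2a. Leaving out the restricted isoforms, copies and pseudogenes, none of which had either protein, raised both shares of the structural subunits. The Jmjd2a intervals overlapped between all complexes, from 0.631 to 80.6% in complex II to 32.9 to 81.6% in complex V, so the complexes could not be ranked by Jmjd2a.

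**Figure D1:**
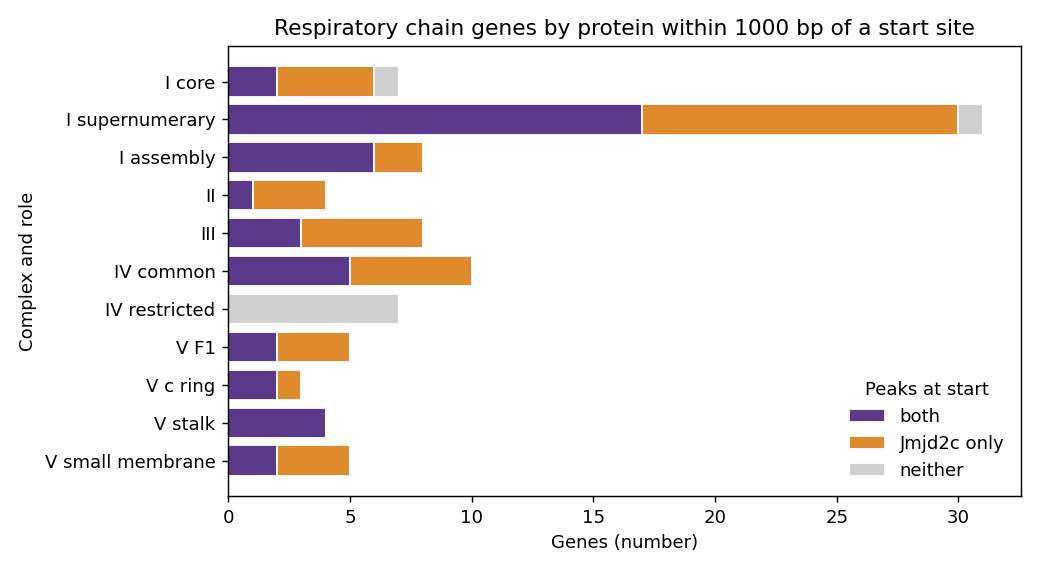
Number of genes (x axis) in each complex and role (y axis), split by the proteins within 1000 bp of a start site: both, Jmjd2c only or neither; retrocopies, the restricted isoform Ndufa4l2, the supercomplex factor Cox7a2l and the genes placed in complex V by an older symbol are not drawn. All 7 restricted isoforms of complex IV had neither protein, whereas 10 of 10 common subunits of complex IV and all 4 peripheral stalk genes of complex V had Jmjd2c.

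In complex I, the core subunits carry the flavin, the iron-sulphur clusters and the ubiquinone site, and the supernumerary subunits surround them. Jmjd2a was present at 2 of 7 core genes (3.67 to 71%), 17 of 31 supernumerary genes (36 to 72.7%) and 6 of 8 assembly factor genes (34.9 to 96.8%). These intervals overlap. Jmjd2c was present at 6 of 7, 30 of 31 and 8 of 8. The supernumerary genes include Ndufa4, placed by its symbol. With Ndufa4 and Ndufa4l2 moved to complex IV, Jmjd2a lay at 24 of 48 genes of complex I and 6 of 21 of complex IV. Ndufv2, an iron-sulphur protein of the NADH-oxidising part, had both, in a Jmjd2a peak of 713 bp and a Jmjd2c peak of 1587 bp. Ndufs1, Ndufs3, Ndufs7 and Ndufv1, which binds NADH and flavin, had Jmjd2c only.

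Jmjd2c peaks at those genes ranged from 342 bp at Ndufs7, whose peak began 33 bp downstream of the start site, to 2521 bp at Ndufs1. The Ndufs1 peak (chr1:63175802-63178322, mm10) also covers the start of Eef1b2, a translation elongation factor gene that begins 9 bp away on the other strand. Ndufs8, another iron-sulphur subunit, had neither. From its start in the promoter table, the nearest Jmjd2c peak was 5098 bp and the nearest Jmjd2a peak 22448 bp away.

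The widest Jmjd2a peaks of complex I lay at Ndufa9 (1645 bp, chr6:126848102-126849746), a subunit beside the ubiquinone site, at Ndufb5 (1602 bp) in the membrane arm, and at the assembly factor genes Ndufaf5 (1479 bp) and Ndufaf2 (1215 bp). At Ndufa9 the Jmjd2a peak was wider than the Jmjd2c peak of 1252 bp. The widest Jmjd2c peaks without Jmjd2a lay at Ndufs1 and Ndufa7, the latter 2125 bp wide and reaching over the start of the ribosomal protein gene Rps28, 10 bp away on the other strand. Ndufb1, a small membrane-arm subunit, was counted with neither because the deposited tables do not name it. Its start in the promoter table lies under a Jmjd2c peak of 1871 bp that is named for Cpsf2, whose start is 236 bp away, so its count rests on which start sites the tables name.

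Complex II has only 4 subunits. Sdha, the flavoprotein that oxidises succinate, had a Jmjd2a peak of 1305 bp and a Jmjd2c peak of 1693 bp. The iron-sulphur subunit gene Sdhb and the membrane anchor genes Sdhc and Sdhd had Jmjd2c only, in peaks of 728, 1321 and 1580 bp. Sdhb had the narrowest of the 4, and its peak began 28 bp downstream of the start site. No member of complex II lacked Jmjd2c.

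In complex III, the small subunit genes Uqcrb and Uqcrq and the core protein gene Uqcrc2 had both proteins, with Jmjd2a peaks of 1481, 531 and 725 bp. The other core protein gene, Uqcrc1, and Uqcrfs1, which encodes the Rieske iron-sulphur protein, had Jmjd2c only, in peaks of 1122 and 1180 bp. Cyc1, the cytochrome c1 gene that the symbol patterns do not take, also had Jmjd2c only, in a peak of 1112 bp. Cyc1 and Uqcrfs1, the nuclear genes for redox proteins of complex III, thus lacked Jmjd2a. Uqcrh, the hinge protein, had the widest Jmjd2c peak of all members, 3398 bp, which also covers the start of Lrrc41, 199 bp away. Uqcr10 followed in complex III with a Jmjd2c peak of 2254 bp.

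Uqcrh was also the nearest miss for Jmjd2a. Its closest Jmjd2a peak lay 1220 bp from the start site, and the next, at the complex I gene Ndufs6, lay 2195 bp away. Just inside the limit, the farthest member counted with Jmjd2a was Atp5g3, at 453 bp. For Jmjd2c the farthest member inside was Ndufs7 at 33 bp and the nearest outside was Ndufa4l2 at 1426 bp. No member had its nearest peak between 453 and 1220 bp for Jmjd2a, or between 33 and 1426 bp for Jmjd2c. For members with several start sites, these distances were taken from the start nearest to the peaks.

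Complex IV held most of the unoccupied subunit genes. Several of its subunits exist in pairs, with one isoform found in most tissues and another that is restricted, to heart and skeletal muscle for Cox6a2, Cox7a1 and Cox8b, to testis for Cox6b2, Cox7b2 and Cox8c, and to lung for Cox4i2. All 7 of these restricted genes had neither protein. Ndufa4l2, a hypoxia-induced relative of Ndufa4, whose product is now known as a subunit of complex IV, also had neither within 1000 bp, and with it 0 of 8 restricted isoforms were occupied. Having neither protein was the most frequent state over all genes (59.3%). Each of their partners, Cox4i1, Cox6a1, Cox6b1, Cox7a2, Cox7b, Cox8a and Ndufa4, had Jmjd2c, and Cox4i1, Cox7a2 and Ndufa4 had Jmjd2a as well.

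The restricted genes of complex IV had no peak nearby. From the starts in the promoter table, the nearest Jmjd2c peak was 12293 bp away for Cox6b2, 13395 bp for Cox7a1, 17620 bp for Cox8b and 618932 bp for Cox7b2. Cox4i2, Cox6a2 and Cox8c have no start site in the tables used. The gap from the annotated gene to the nearest Jmjd2c peak was 65152, 30584 and 20327 bp, and the gap to the nearest Jmjd2a peak was 66366, 30919 and 20335 bp. The remaining unoccupied members were Ndufa11b, Ndufb4c, Ndufs5-ps and Cox7c-ps1, copies or pseudogenes of respiratory chain genes. Their gaps to the nearest Jmjd2c peak ran from 7077 bp at Ndufa11b to 78624 bp at Ndufs5-ps.

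The widely used isoforms had Jmjd2c peaks of 1853 bp at Cox4i1, 1599 bp at Cox6a1, 1349 bp at Cox6b1, 1417 bp at Cox7a2, 899 bp at Cox7b, 2010 bp at Cox8a and 1022 bp at Ndufa4. Cox8a and Cox6a1 had the widest Jmjd2c peaks among complex IV genes without Jmjd2a. Jmjd2a peaks of complex IV were short at most genes, with 400 bp at Cox5b, 398 bp at Cox4i1, 433 bp at Cox7a2 and 500 bp at Cox5a. Cox6c stood apart from them with 1176 bp. Cox7a2l, a factor for supercomplexes of III and IV that was counted with the structural subunits, had Jmjd2c only, in a peak of 1265 bp.

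Promoters of isoform pairs are shown because occupancy divides them. Each line holds the 150 bases before the start site, 5′ to 3′, from RefSeq on GRCm38.p6 (the assembly that mm10 is made from), and CpG dinucleotides are in capitals. In each pair the widely used isoform, which had Jmjd2c, comes first and the restricted one, which had neither protein, second.
Cox7a2 chr9:79759854-79760003 (minus strand): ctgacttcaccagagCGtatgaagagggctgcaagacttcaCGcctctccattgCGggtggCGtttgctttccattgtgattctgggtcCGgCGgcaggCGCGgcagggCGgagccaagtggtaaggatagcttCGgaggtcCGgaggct
Cox7a1 chr7:30184021-30184170 (plus strand): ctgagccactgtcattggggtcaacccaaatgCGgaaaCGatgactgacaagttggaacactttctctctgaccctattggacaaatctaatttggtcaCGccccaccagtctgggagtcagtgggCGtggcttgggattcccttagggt
Cox8a chr19:7217617-7217766 (minus strand): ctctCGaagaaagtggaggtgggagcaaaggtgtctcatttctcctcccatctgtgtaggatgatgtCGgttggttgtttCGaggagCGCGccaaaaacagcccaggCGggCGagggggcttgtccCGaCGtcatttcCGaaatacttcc
Cox8b chr7:140900447-140900596 (minus strand): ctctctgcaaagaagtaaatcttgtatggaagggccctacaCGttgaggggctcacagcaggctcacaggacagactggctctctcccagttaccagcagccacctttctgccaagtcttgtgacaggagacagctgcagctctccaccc
Cox7b chrX:106015550-106015699 (plus strand): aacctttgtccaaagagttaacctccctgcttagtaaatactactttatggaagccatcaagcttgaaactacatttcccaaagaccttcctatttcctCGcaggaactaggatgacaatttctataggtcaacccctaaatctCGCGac
Cox7b2 chr5:71548206-71548355 (minus strand): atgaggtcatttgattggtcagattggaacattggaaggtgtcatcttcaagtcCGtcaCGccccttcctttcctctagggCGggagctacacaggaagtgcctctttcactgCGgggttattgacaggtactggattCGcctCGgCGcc
Over the full promoter of 300 bases, 250 before and 50 after the start, Cox7a2 had 20 CpG and Cox7a1 7, and Cox8a had 19 and Cox8b 2. The pair of Cox7b and Cox7b2 went the other way, with 5 CpG at the occupied Cox7b and 10 at the unoccupied Cox7b2. Cox6b1 had 17 and Cox6b2 10.

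In complex V, the F1 head makes ATP, the ring of c subunits turns in the membrane, and the peripheral stalk holds the head still. Jmjd2c lay at all 19 genes. Without Dmac2 and Dmac2l, which entered only because the deposited tables list them, it lay at 17 of 17. Jmjd2a lay at 4 of 4 peripheral stalk genes (Atp5pb, Atp5h, Atp5j and Atp5o), 2 of 3 c-ring genes, 2 of 5 F1 genes and 2 of 5 genes for small membrane subunits. The F1 genes with both were Atp5c1 (gamma subunit) and Atp5e (epsilon subunit), and Atp5a1 and Atp5b, whose products form the catalytic sites, and Atp5d had Jmjd2c only. With 3 to 5 genes in each role these counts have wide intervals, from 5.27 to 85.3% for the F1 genes and from 39.8 to 100% for the stalk.

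The widest Jmjd2a peaks of complex V were 1225 bp at Atp5k (subunit e), 1218 bp at Atp5pb (stalk subunit b, listed as Atp5f1 in the tables), 869 bp at Atp5h (stalk subunit d) and 842 bp at Dmac2. Dmac2 and Dmac2l are listed in the tables as Atp5sl and Atp5s and had both proteins. Dmac2 is now known as an assembly factor of complex I. The widest Jmjd2c peaks without Jmjd2a lay at Atp5b (2449 bp, chr10:128081952-128084400) and Atp5g2 (2420 bp). Atp5j, the stalk factor F6, starts beside Gabpa, which encodes a subunit of a transcription factor of the ETS family that acts on respiratory chain genes. The Jmjd2a peak of 349 bp and the Jmjd2c peak of 2361 bp near Atp5j are also those counted for Gabpa.

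Widths of Jmjd2a peaks at members had a median of 710.5 bp (interquartile range 526.5 to 1044 bp, range 345 to 1645 bp, n = 46), and over all genes with both proteins the median was 825 bp. The medians by complex were 760 bp in I, 725 bp in III, 433 bp in IV and 685.5 bp in V, beside the single peak of complex II. Jmjd2c peaks had a median of 1483 bp at members (range 342 to 3398 bp, n = 87 with Ndufb1) and 1427 bp over all genes. Members with both proteins and with Jmjd2c only had similar Jmjd2c widths, with medians of 1463 and 1488 bp. Over all genes these medians were 1460 and 1357 bp.

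**Figure D2:**
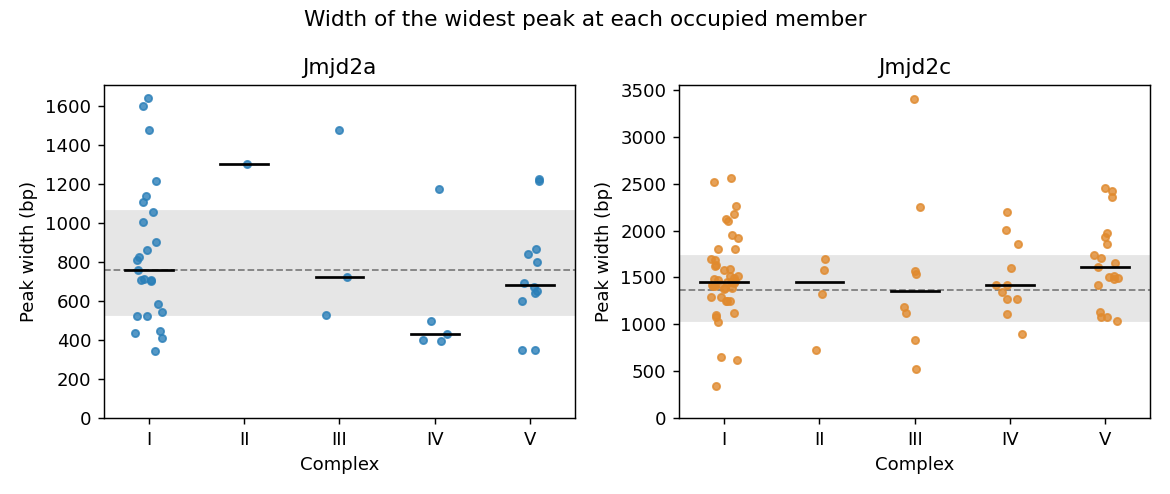
Width of the widest peak (y axis, bp) at each occupied member by complex (x axis), for Jmjd2a on the left and Jmjd2c on the right; black lines are medians of the members, and the dashed line and grey band are the median and interquartile range over all peaks near a start site. The Jmjd2a medians run from 433 bp in complex IV to 1305 bp at the single gene of complex II, and Uqcrh stands above the other Jmjd2c values at 3398 bp.

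At the 46 members with both proteins, the position of Jmjd2a differed from that of Jmjd2c. The widest Jmjd2c peak covered the start site at 46 of 46, and the widest Jmjd2a peak at 24 (52.2%, 36.9 to 67.1%). Where a gene had several start sites, the start nearest to the peaks of both proteins was used, for members and all genes alike. Coverage and position are therefore partly set by that choice. The Jmjd2a peak lay wholly upstream of the start at 16 members (34.8%, 21.4 to 50.2%) and wholly downstream at 6. Over all 6416 genes with both proteins and a known strand, Jmjd2a covered the start at 67%, lay wholly upstream at 16.3% and wholly downstream at 16.7%, and Jmjd2c covered it at 94.2%. The share of upstream Jmjd2a peaks at members was thus above that of all genes, and its interval did not reach the latter. This measure was chosen after the data were seen, and no test was made of it.

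The centre of the Jmjd2a peak had a median position of -153.2 bp at members, upstream of the start, against 115 bp downstream over all genes with both. The Jmjd2c centres had medians of 85 and 114.8 bp. Jmjd2a was centred upstream at 26 of 46 members (56.5%, 41.1 to 71.1%) and at 37.6% of all genes with both, and Jmjd2c at 16 of 46 members and at 30.9% of all genes. By complex, Jmjd2a was centred upstream at 13 of 25 genes in I, 1 of 1 in II, 2 of 3 in III, 2 of 5 in IV and 8 of 12 in V. The members without another listed start site within 1000 bp gave 16 of 28 upstream and a median of -118.8 bp. No matching share of all genes was computed, and the part of neighbouring promoters was not tested.

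By the widest peak, the centres farthest upstream were those of the c-ring genes Atp5g3 (-780 bp) and Atp5g1 (-747.5 bp), Ndufa4 (-712.5 bp), Uqcrq (-549 bp) and Atp5l (-527 bp), a small membrane subunit of the ATP synthase. At Atp5g3 the Jmjd2c peak was centred at 21 bp, on the start site. The start used for Atp5g3, also that of the promoter table, lies inside its annotated gene (chr2:73908447-73912464, minus strand). Its Jmjd2a peak (chr2:73911779-73912433) lies within that gene too. Conversely, the start used for Atp5pb (chr3:105960248) lies outside its annotated gene, which ends at 105959263. Such positions depend on the start used. At the other end, the Jmjd2a peaks of Cox6c, Ndufa5 and Ndufv2 were centred 707.5, 528.5 and 526 bp downstream. For 3 of these genes the direction turned when the peak nearest to the start was taken in place of the widest, with centres of 301 bp at Atp5g1, 183.5 bp at Ndufa4 and -363 bp at Ndufv2. These genes were named for their place in the order of centres after the values were seen. A Jmjd2a and a Jmjd2c peak overlapped by at least 1 bp at 46 of 46 members, near the 98.7% of all genes with both, and the widest of each overlapped at 43, the exceptions being Ndufa4, Uqcrq and Atp5g1. A Jmjd2a peak lay wholly inside a Jmjd2c peak at 29 members (63%, against 64.7% of all genes with both). The Jmjd2a peak was the narrower one at 44 of 46 (95.7%, 85.2 to 99.5%, against 86.8% of all genes with both), the exceptions being Ndufa9 and Uqcrq.

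**Figure D3:**
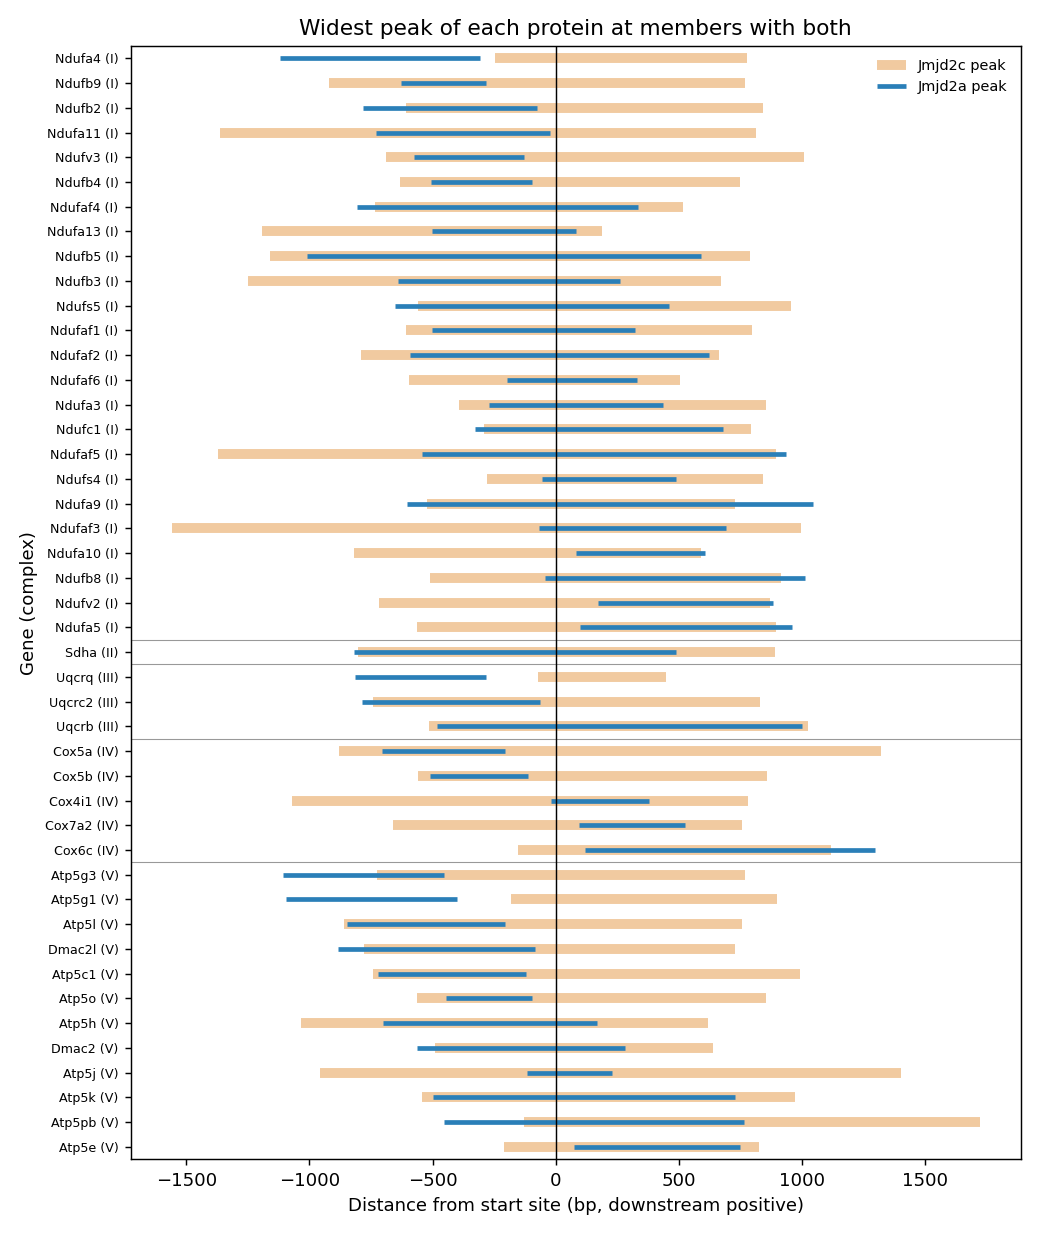
Extent of the widest Jmjd2a peak (blue) and the widest Jmjd2c peak (orange) at 45 of the 46 members with both proteins (y axis, grouped by complex and ordered by the Jmjd2a centre), as distance from the start site (x axis, bp, downstream positive). The Jmjd2c peaks drawn all cross the start site, whereas 16 Jmjd2a peaks end upstream of it and 6 begin downstream.

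The same shift was seen in the windows deposited for start sites bound by both proteins, which reach 1 kb to each side. In the 52 windows of members, Jmjd2a peaks covered 75% of windows at -400 bp, where coverage was highest, 46.2% at -50 bp, 51.9% at the start site and 63.5% at 150 and 200 bp, a second and lower maximum. In all 6940 windows Jmjd2a coverage was 49.3% at -400 bp, 67.2% at the start site and highest, at 77.5%, at 200 bp downstream. Jmjd2c coverage reached 100% of member windows at -50 bp and 95.8% of all windows at 150 bp. Some members have several windows, and the peaks are those described above, so the windows are not a separate measurement.

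**Figure D4:**
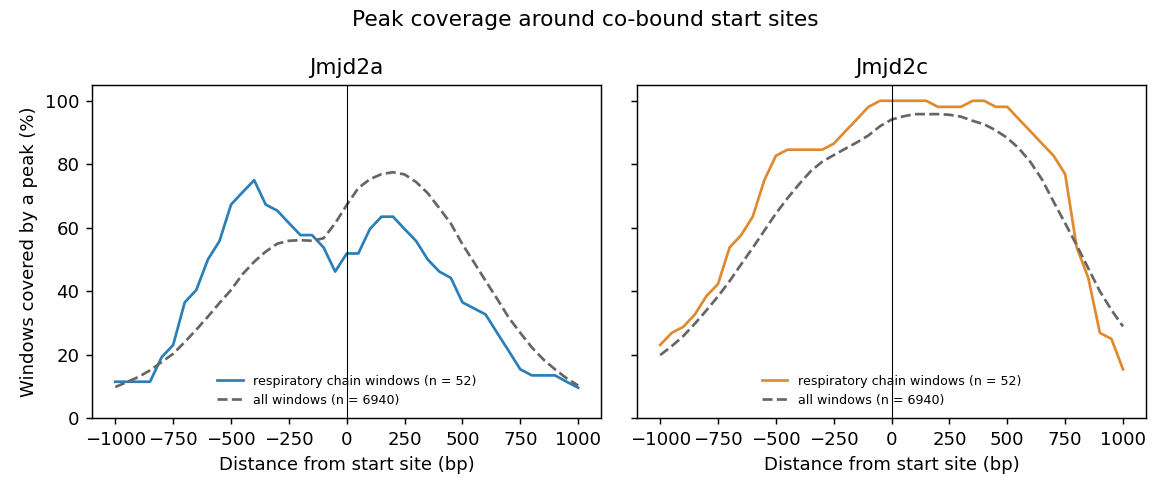
Percentage of windows covered by a peak (y axis) at each distance from the start site (x axis, bp, downstream positive), for Jmjd2a on the left and Jmjd2c on the right, in 52 respiratory chain windows (solid) and all 6940 windows (dashed). Jmjd2a coverage of the respiratory chain windows is highest at -400 bp with 75%, dips to 46.2% at -50 bp and rises again to 63.5% at 150 bp, whereas coverage of all windows is highest at 200 bp with 77.5%.

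Many respiratory chain genes share a promoter with a gene read in the other direction. Of the 93 members with a known start site, 29 had such a divergent partner within 1000 bp. Over all genes with a known start site, 2636 had a partner and 19331 did not. Jmjd2a lay at 15 of these 29 (51.7%) and at 31 of the 64 others (48.4%), and Jmjd2c at 28 of 29 (96.6%) and 58 of 64 (90.6%). Over all genes the gap was larger, with Jmjd2a at 55.3% and Jmjd2c at 78.4% of genes with a divergent partner and at 29.6% and 40.7% of those without. Member promoters without a partner had higher shares of each protein than promoters of that kind in general, while with a partner the Jmjd2a shares were close. No member shared a peak with another member.

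A promoter sequence was in the RefSeq table for 79 members. Their median GC content was 58.3% and their median CpG count 20 in 300 bases. Members with both proteins had medians of 59.3% and 21.5 CpG, members with Jmjd2c only 57.3% and 19, and the 6 members with neither 54% and 10. Over all genes the medians were 62.7% and 24 with both and 50.3% and 4 with neither. The occupied members were thus less rich in GC and CpG than occupied genes in general, and members with and without Jmjd2a differed little. Base composition varied with occupancy over the whole genome, and its part in the counts was not tested.

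**Figure D5:**
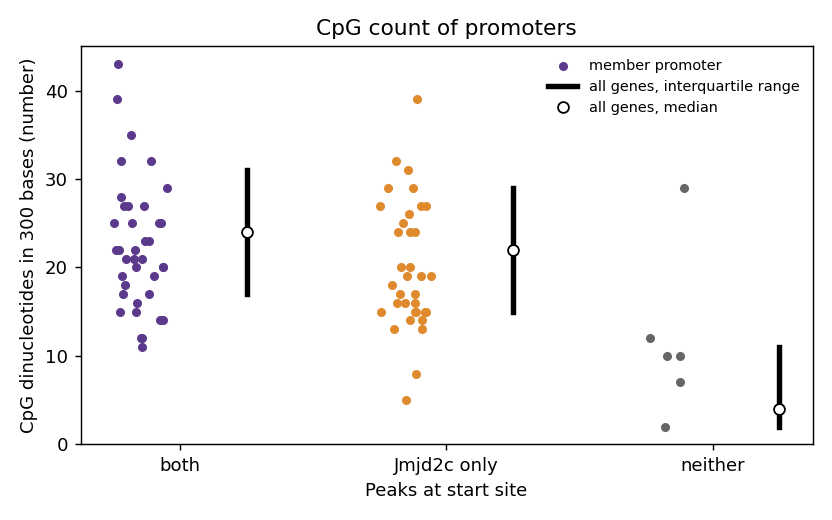
CpG dinucleotides in the 300-base promoter (y axis, number) of each member by the proteins at its start site (x axis), beside the median (open circle) and interquartile range (bar) of all genes in the same state. Members with both have a median of 21.5 and members with neither 10, against 24 and 4 over all genes; the single member with neither that reaches 29 is Ndufb1.

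Short motifs of factors known from promoters of this kind were searched on both strands in the same 300 bases. The core site of NRF1, CGCATGCG, was in 10 of 79 member promoters (12.7%), against 2.49% of all genes, counted like the members with 1 promoter for each of 19528 genes, and 5.12% of genes with both proteins. The core of YY1 sites, AAGATGGC, was in 13.9% of members, 3.18% of all genes and 5.29% of genes with both. The core of ETS sites, CCGGAAG, was in 22.8%, 11.7% and 22.5%. The GC box GGGCGG was in 45.6% of members and in the same share of all genes, below the 70.7% of genes with both. TATAAA, the TATA box, was in 10.1% of members, 12.9% of all genes and 4.92% of genes with both. Over all 32851 promoters of the table, several of which can belong to 1 gene, the shares were 1.87% for NRF1, 2.75% for YY1, 8.86% for ETS, 35.7% for the GC box and 13.6% for the TATA box. In these 79 promoters, matches of different motifs overlapped only at Ndufs3, between an ETS core and a GC box. A match is a description of letters, not a site in use.

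Motif shares were also set side by side for members with both proteins and with Jmjd2c only. The ETS core was in 34.3% of members with Jmjd2c only (12 of 35) and in 13.2% of those with both (5 of 38). Over all genes it was in 21.7% and 22.5%. This split was singled out among the motifs after the values were seen. It rests on few genes, and no interval or test was made of it. The NRF1 core was as frequent in members with both (13.2%) as with Jmjd2c only (14.3%). Of the 11 members with the YY1 core, 10 held it downstream of the start and on the coding strand, between 10 and 38 bases into the transcript, and the 11th, Atp5pb, held it across the start on the other strand. These members were Atp5j2, Dmac2, Ndufa3, Ndufa9, Ndufaf8, Ndufb8, Ndufc1, Ndufs4, Ndufs6 and Ndufs7. A YY1 core in those 50 bases was in 12.7% of member promoters and 1.57% of all genes with a promoter sequence. That stretch was singled out after the member matches were seen in it, which widens the gap, and no test was made.

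Promoters that hold these motifs are shown from both kinds of member, with 150 bases before the start site, 5′ to 3′, from RefSeq on GRCm38.p6. Capitals mark the NRF1 core in the promoters of the assembly factor gene Ndufaf4, Atp5k and Atp5g2, the ETS core, read on the other strand, in those of Uqcrh, Cox6a1, Atp5e and Atp5h, and GC boxes on either strand in Ndufaf4, Cox6a1 and Atp5e. Ndufaf4, Atp5k, Atp5e and Atp5h had both proteins, and Atp5g2, Uqcrh and Cox6a1 had Jmjd2c only.
Ndufaf4 chr4:24897933-24898082 (plus strand): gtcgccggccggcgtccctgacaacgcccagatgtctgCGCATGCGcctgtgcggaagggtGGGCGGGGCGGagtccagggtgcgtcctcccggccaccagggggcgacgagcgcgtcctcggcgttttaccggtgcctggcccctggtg
Atp5k chr5:108434400-108434549 (minus strand): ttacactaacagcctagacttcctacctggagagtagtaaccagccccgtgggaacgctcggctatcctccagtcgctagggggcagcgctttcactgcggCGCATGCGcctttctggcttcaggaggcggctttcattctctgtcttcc
Atp5g2 chr15:102671048-102671197 (minus strand): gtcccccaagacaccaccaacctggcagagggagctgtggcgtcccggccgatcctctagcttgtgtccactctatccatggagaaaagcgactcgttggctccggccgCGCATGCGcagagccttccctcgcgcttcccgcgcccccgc
Uqcrh chr4:116075071-116075220 (minus strand): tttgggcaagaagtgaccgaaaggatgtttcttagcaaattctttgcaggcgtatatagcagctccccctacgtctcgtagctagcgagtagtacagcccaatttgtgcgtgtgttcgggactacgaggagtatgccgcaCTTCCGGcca
Cox6a1 chr5:115348959-115349108 (minus strand): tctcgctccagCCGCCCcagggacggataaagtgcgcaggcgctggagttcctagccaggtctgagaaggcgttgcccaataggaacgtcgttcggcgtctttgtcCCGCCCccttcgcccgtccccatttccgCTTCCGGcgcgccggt
Atp5e chr2:174464102-174464251 (minus strand): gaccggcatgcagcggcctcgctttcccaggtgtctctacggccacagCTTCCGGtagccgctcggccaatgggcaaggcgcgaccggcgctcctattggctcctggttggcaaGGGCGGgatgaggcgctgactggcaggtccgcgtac
Atp5h chr11:115419920-115420069 (minus strand): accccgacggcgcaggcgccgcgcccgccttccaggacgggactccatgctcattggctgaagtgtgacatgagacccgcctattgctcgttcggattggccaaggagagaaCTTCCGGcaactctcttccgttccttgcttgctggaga
The first base of the NRF1 core lies at -49 from the start of Atp5k, at -41 in Atp5g2 and at -112 in Ndufaf4. That of the ETS core lies at -10 in Uqcrh, -16 in Cox6a1, -38 in Atp5h and -102 in Atp5e. Each of these motifs was thus found in members with and without Jmjd2a.

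Other genes of the pathway were counted from lists. Among 40 assembly factors of complexes I to V outside the symbol patterns, 36 had Jmjd2c (90%) and 23 Jmjd2a (57.5%), beside 49.9% and 36.1% of protein-coding genes without predicted and receptor genes. Uqcc1, an assembly factor of complex III, was the one gene among them with Jmjd2a only, in a peak of 550 bp. Of 13 citric acid cycle genes, which supply NADH and succinate to the chain, 12 had Jmjd2c (92.3%) and 9 Jmjd2a (69.2%). The exception for Jmjd2c, Idh3g, has its promoter-table start near a Jmjd2c peak of 498 bp. Of 3 cytochrome genes, Cyc1 and Cycs, the electron carrier between complexes III and IV, had Jmjd2c only, and Cyct, its testis form, had neither. Of 14 regulators of mitochondrial genes, 12 had Jmjd2c (85.7%) and 9 Jmjd2a (64.3%), set against the same background. Nrf1 itself had a Jmjd2a peak of 1329 bp and a Jmjd2c peak of 2600 bp, whereas Yy1 and Ppargc1a, a coactivator of mitochondrial genes, had neither.

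Few peaks overlapped the annotated gene of a member away from its own start sites. A Jmjd2c peak of 1162 bp in complex V lay 2652 bp from the start of Atp5d and covered the start of its neighbour Dos. The Jmjd2c peak of 1869 bp at Ndufa4l2 lay 1426 bp from its start site. Neither Jmjd2a nor Jmjd2c had any other peak over a member's gene that was more than 1000 bp from that gene's start.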

How the data were processed

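Peaks of 2 proteins were read from deposited lists; the groups come from the sample titles. The tools were bedtools 2.25.0, SAMtools and Bowtie 0.12.7, with build mm10, per the submitters' processing notes. No source used here gives the peak caller, threshold, control library or any pooling. The authors deposited positions and distances in bp, with no height, score or value per library, so depth and the precision it gives are unknown.

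Of 17007 RefSeq accessions, 16875 matched a RefSeq gene table on GRCm38.p6, and 12803 start sites were used. Start sites more than 50 kb from the gene were dropped (83 assignments). Of the members, 84 are named in the tables by a matching symbol, and 17 genes of the symbol patterns without a curated transcript were left out. A gene with several peaks was described by the widest. Genes with several start sites were described by the start nearest to the peaks of both proteins, which favours starts under a peak. Shares carry exact Clopper-Pearson 95% intervals, and no test was possible on positions.

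The members, lists and measures were chosen with earlier results of these data known. Named genes are members with neither protein, up to 4 per complex with both and the widest Jmjd2a peak, up to 2 with Jmjd2c only and the widest Jmjd2c peak, all of complex II, isoform pairs, core and F1 subunits, and members beside the 1000 bp limit. One gene that the rule names is not reported here. Other genes named were chosen after their values were seen. On simulated data the distance to planted peaks was recovered at 100% of 500 start sites. This checks the distance calculation only, not the assignment of start sites to genes. Python 3.11.15, numpy 2.4.6, pandas 2.3.3, scipy 1.17.1 and matplotlib 3.10.9 were used.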

Additional observations from a re-analysis of the deposited data

How the results depend on the processing

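Of 143 recomputed values, 123 stayed within the interval of the reported share or within 1.5 times the reported count, and 20 moved. Keeping the wider 50% of each peak list, the share of members with Jmjd2a was 26%, with Jmjd2c 61% and with both 19%. The share of all genes was not computed from these shorter lists, so the background of the full lists cannot be set beside these values. The counts were then 1 in complex IV and 5 in complex V with Jmjd2a, 4 in III and 7 in IV with Jmjd2c, and 12 in I, 0 in IV and 4 in V with both. With the starts of the promoter table, which holds 79 members, Jmjd2c lay at 93.7%, also without a matched share of all genes. In complex III, where 5 genes have an entry, 0 had Jmjd2a, 5 had Jmjd2c and 0 both. In complex IV, where 13 have one, 3 had Jmjd2a and 3 both. Fewer genes counted made these counts lower. A window of 5000 bp took in 1 of the 8 restricted isoforms. Among protein-coding genes the background was 32.3% for Jmjd2a, 44.6% for Jmjd2c and 28.9% for both. Alternatives chosen after seeing the data moved no value: counting only the nearest named gene, joining both sources of start sites, the nearest peak for the upstream count (25 of 46) and promoter-table starts for the structural subunits (65 of 66 with Jmjd2c, 31 of 66 with Jmjd2a). No paired analysis was possible because the peak lists carry no value per replicate. The lists have no score, so weak and strong binding could not be told apart, and an absent peak is not absent binding at an unknown depth.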
